A study of Mus musculus with 4 samples.

Results

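The transcription factors that divide the early midbrain from the hindbrain were followed in whole mouse embryos lacking Ddx6, an RNA helicase of mRNA decay and translational repression. The 7 genes were taken as listed symbols from a table of 24421 genes: the engrailed homeobox genes En1 and En2, the paired box genes Pax2, Pax5 and Pax8, the homeobox gene Gbx2, and the zinc finger gene Egr2, also known as Krox20. All 7 were found in the table, each under its own symbol. The choice rests on the names and on no measured value, though it was made with earlier results of these data known. All embryos were of the ICR strain. There was 1 library of wild-type embryos at embryonic day 7.5 (E7.5 WT), 1 of wild-type embryos at embryonic day 8.5 (E8.5 WT), and 2 from Ddx6 knockout embryos of the later stage (KO1 and KO2). According to the study's methods, the knockout allele lacks an exon of Ddx6 that was floxed and removed with CAG-Cre, a widely expressed deleter line. By the study's text, both KO libraries were pools. KO1 joined an embryo from before head-fold formation with an embryo that had head folds, whereas every embryo of KO2 was at the earlier of these steps. Genotype and morphological stage therefore cannot be told apart in these libraries. How many embryos each wild-type library held was not given in the sources used here.

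Between 8198402 and 12562640 reads were counted on genes per library, and 16511 to 17112 genes had a read. Ddx6 itself had 2943 reads at E7.5 and 5715 at E8.5 in wild type, and 706 (KO1) and 929 (KO2) in the knockout. KO2 stood apart from KO1 and E8.5 WT, and in some markers from E7.5 WT. The placental hormone gene Prl3d1 had 4156 reads in KO2 and at most 27 elsewhere, and 5 epiblast markers (Pou5f1, Nanog, Fgf5, Utf1 and Dnmt3b) summed to 2935 CPM, against 711.0 for KO1, 521.3 for E8.5 WT and 2038 for E7.5 WT. The other trophoblast markers were split. Elf5 (795 against 10 reads) and Ascl2 (358 against 54) were higher in E7.5 WT than in KO2. Prl2c2 (3 against 1400 reads) and Hand1 (216.1 against 330.5 CPM) were lower in E7.5 WT than in KO2. Because KO1 and KO2 differed, all differences from wild type are given for each separately. CPM are reads scaled to a common library total, after adjustment with TMM factors (trimmed mean of M-values). Differences are of log2 CPM with a prior count of 2, and a gene was called when this log2 difference was past 1 or -1, the criterion of the study, in both KO libraries. Brackets give exact Clopper-Pearson 95% intervals of the unshrunken log2 ratio between 2 libraries, and intervals of levels are exact Poisson intervals. Both cover counting error only. With 1 wild-type library per stage, differences could be set only against the spread of the KO pair.

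The border between midbrain and hindbrain is set in the neural plate where the anterior homeobox gene Otx2 meets the posterior homeobox gene Gbx2. Cells at this border, the isthmic organizer, release Fgf8 and Wnt1, which pattern the midbrain and the cerebellum on either side. Pax2 marks the border territory first, En1, Pax5 and En2 follow, and the Pax and En genes are needed to keep the organizer. Egr2 acts further back, in alternating segments of the hindbrain (rhombomeres). None of the genes is restricted to the brain border. Pax2 and Pax8 also mark the intermediate mesoderm and the otic placode, Pax8 the thyroid primordium, Pax5 B lymphocytes, Gbx2 the posterior ectoderm of the gastrula, and Egr2 neural crest and myeloid cells. In whole embryos, fewer cells of a type and less RNA per cell cannot be told apart.

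The 7 genes lie on 6 chromosomes (GRCm38, the assembly of mm10, with GENCODE annotation). En1 is at chromosome 1, 120602418 to 120607992, plus strand, and Gbx2 at chromosome 1, 89927956 to 89931179, minus strand. En2 is at chromosome 5, 28165694 to 28172166, plus strand, Pax2 at chromosome 19, 44756045 to 44837871, plus strand, and Pax5 at chromosome 4, 44524757 to 44710487, minus strand. Pax8 is at chromosome 2, 24420560 to 24475599, minus strand, and Egr2 at chromosome 10, 67535475 to 67542188, plus strand. Genes on the opposite strand overlap En2, Pax2, Pax5, Pax8 and Gbx2 in this annotation. The reads were counted by strand, so these were kept apart.

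Promoter sequences were compared to see which short motifs the genes share. RefSeq windows from 250 bases before to 50 bases after a transcription start (GRCm38.p6) were found for 6 of the 7 genes, En2 being the exception, with 12 windows in all. The letters CACGTG, an E-box that reads the same on both strands, occurred in 3 of the 12 windows, those of Gbx2, En1 and Egr2. Of all 32851 mouse windows, 7.2% held it. The 3 windows are shown because they share this word, which is in capitals. They are Gbx2 (chr1:89931127-89931426, minus strand), En1 (chr1:120602237-120602536, plus strand) and the most upstream start of Egr2 (chr10:67535249-67535548, plus strand), each written 5′ to 3′ on the strand of its gene.
Gbx2: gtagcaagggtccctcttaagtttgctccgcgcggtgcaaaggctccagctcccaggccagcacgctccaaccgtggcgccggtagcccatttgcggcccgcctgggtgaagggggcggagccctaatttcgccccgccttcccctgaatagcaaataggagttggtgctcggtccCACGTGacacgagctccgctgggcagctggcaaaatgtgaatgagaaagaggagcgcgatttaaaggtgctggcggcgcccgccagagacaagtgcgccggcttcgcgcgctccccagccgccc
En1: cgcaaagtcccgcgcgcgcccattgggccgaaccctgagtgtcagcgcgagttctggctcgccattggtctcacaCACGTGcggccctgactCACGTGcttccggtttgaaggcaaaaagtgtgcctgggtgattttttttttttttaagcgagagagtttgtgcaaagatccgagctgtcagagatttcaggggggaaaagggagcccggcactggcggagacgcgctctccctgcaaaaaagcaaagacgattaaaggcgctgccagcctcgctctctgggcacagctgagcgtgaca
Egr2: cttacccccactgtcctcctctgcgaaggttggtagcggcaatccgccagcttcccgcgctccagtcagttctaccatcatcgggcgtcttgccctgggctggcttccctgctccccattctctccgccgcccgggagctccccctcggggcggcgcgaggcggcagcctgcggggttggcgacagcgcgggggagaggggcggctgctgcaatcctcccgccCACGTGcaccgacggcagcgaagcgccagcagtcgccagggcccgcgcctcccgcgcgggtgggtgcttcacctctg
The E-box began at base -74 from the start in Gbx2, at -175 and -158 in En1, and at -27 in Egr2. GC content was 64.7%, 57.0% and 72.0% in this order, against a median of 52.7% over all windows. The CCAAT box (CCAAT, on either strand) was in 5 of the 12 windows, which belonged to En1, Pax8 and Egr2, and in 37.4% of all windows. The Egr2 windows among them overlap and hold the same site, so the windows are not independent. The homeodomain core TAATTA (5.3% of all windows), the OTX site TAATCC (7.1%), the EGR site GCGNGGGCG (5.6%), the TCF site TTCAAAG (5.1%) and the TATA box TATAAA (13.6%) were in 0 of the 12. No E-box overlapped another motif searched. A match describes letters in the window and not a bound site.

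The first comparison asked how the genes behave as a normal embryo passes from E7.5 to E8.5. Of the 7 genes, 6 were higher in E8.5 WT than in E7.5 WT by more than 1 on the log2 scale, and En2 was not. Of all 14393 genes kept (at least 10 reads in at least 1 library), 12.2% were higher by this measure and 7.82% lower, and 0 of the 7 were lower. Pax2, the earliest of these markers of the border, had 17 reads at the earlier stage and 352 at the later, a 20.0-fold difference (log2 difference 4.16 [3.62 to 5.12]). En1 had 25 and 190 reads and differed 7.36-fold (2.78 [2.27 to 3.54]). Gbx2, already at 230 reads in E7.5 WT, reached 515 and differed 2.17-fold (1.11 [0.89 to 1.35]). Egr2 had 7 and 35 reads, a 4.84-fold difference (1.98 [1.08 to 3.69]), and Pax8 had 2 and 21, a 10.2-fold difference (2.44 [1.31 to 6.48]). Pax5 went from 0 to 12 reads. It was at least 3.87-fold higher in E8.5 WT, taking 3 reads as the floor. En2, which is known to follow En1 in time, had 10 and 14 reads, and its log2 difference of 0.37 [-0.84 to 1.77] was not distinguishable from 0 at this depth. Each stage had 1 library, so these values have no replicate check. Pax5, Pax8 and Egr2 reached the minimum of 10 reads in E8.5 WT alone and could be kept only by being higher there, so counts of called genes are no test of the group as a whole.

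Levels of different genes were compared per kilobase of exon. In E8.5 WT, Gbx2 led with 19.25 CPM per kb (17.62 to 20.98), followed by En1 at 5.89 (5.08 to 6.79) and Pax2 at 5.30 (4.76 to 5.88), whose intervals overlapped. Egr2 came next at 0.838 (0.584 to 1.17). En2 at 0.322 (0.176 to 0.540) and Pax8 at 0.282 (0.175 to 0.431) were not separated, and Pax5 had 0.110 (0.0570 to 0.193), an interval that overlapped theirs. In KO1, Gbx2 still led, with 14.9 CPM per kb (13.2 to 16.8), ahead of En1 at 2.68 (2.04 to 3.45) and Pax2 at 1.70 (1.34 to 2.12). In KO2, En1 at 2.22 (1.73 to 2.801) and Gbx2 at 1.77 (1.30 to 2.36) overlapped at the top, then En2 at 0.510 (0.320 to 0.772) and Pax2 at 0.258 (0.150 to 0.413). In E7.5 WT, Gbx2 was at 8.88 (7.77 to 10.1) and En1 next at 0.801 (0.518 to 1.18). Gbx2 therefore led in 3 of the 4 libraries and shared the lead in KO2.

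**Figure D1:**
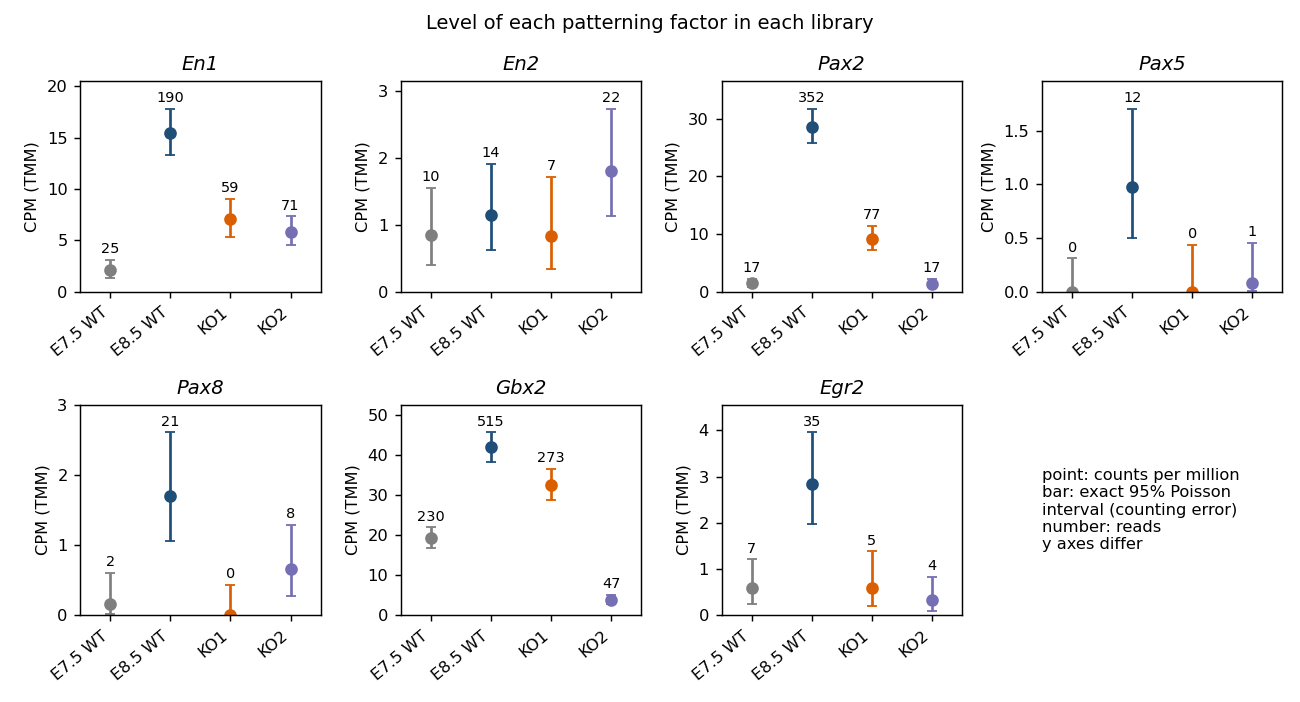
Level of each patterning factor in each library, as TMM-normalized CPM on the y axis of each panel (axes differ), with exact 95% Poisson intervals as bars and read counts as numbers. En1, Pax2, Pax5, Pax8 and Egr2 were lower in KO1 and KO2 than in E8.5 WT, Gbx2 was far lower in KO2 alone, and En2 lay between 7 and 22 reads in every library.

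The second comparison, of the KO libraries with E8.5 WT, asked which of the genes differed without Ddx6. En1, Pax2, Pax5, Pax8 and Egr2 (5 of 7) were lower in both KO libraries by more than 1 on the log2 scale, Gbx2 was lower by this measure in KO2 only, and En2 in neither. Of all genes kept, 1.79% were lower in both KO libraries and 3.44% higher, and 0 of the 7 genes were higher. Taken alone, KO1 had 5 of the 7 lower, against 3.31% of all genes, and KO2 had 6 of the 7, against 5.91%. The median log2 difference of the 7 was -1.62 in KO1 and -2.15 in KO2, against -0.01 and 0.00 over all genes. With genes at 0 reads set to their bound, the KO1 median was -1.45. Pax5, Pax8 and Egr2 again enter these figures through E8.5 WT alone.

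En1, the engrailed gene that acts first in the midbrain and anterior hindbrain, had 25 reads at E7.5 and 190 at E8.5 in wild type, and 59 (KO1) and 71 (KO2) without Ddx6. Its level was 15.5 CPM at E8.5 in wild type, 7.03 (KO1) and 5.83 (KO2). It was 2.20-fold lower in KO1 (log2 difference -1.12 [-1.58 to -0.71]) and 2.65-fold lower in KO2 (-1.38 [-1.82 to -1.01]), with a mean of -1.25 ± 0.19 (SD, n = 2). The KO libraries lay close to each other and between the wild-type stages, but the KO1 interval extended above -1. Among the 7 genes, En1 had the smallest spread between KO1 and KO2. En2, its partner in the later midbrain and cerebellum, had 10 reads at E7.5 and 14 at E8.5 in wild type, and 7 (KO1) and 22 (KO2) without Ddx6. Its log2 differences from E8.5 WT were -0.38 [-2.0 to 0.95] in KO1 and 0.59 [-0.37 to 1.74] in KO2. These lie on opposite sides of 0 and both intervals cover it, so neither a gain nor a loss was detectable at this depth (mean 0.10 ± 0.69, SD, n = 2).

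Pax2 differed far more in KO2 than in KO1. It had 17 reads at E7.5 and 352 at E8.5 in wild type, and 77 (KO1) and 17 (KO2) without Ddx6, and levels of 1.43, 28.6, 9.17 and 1.40 CPM. The level was 3.12-fold lower than in E8.5 WT in KO1 (log2 difference -1.62 [-2.02 to -1.28]) and 20.5-fold lower in KO2 (-4.19 [-5.16 to -3.66]), with a mean of -2.91 ± 1.82 (SD, n = 2). In KO2 the level was that of E7.5 WT (log2 difference -0.03 [-1.09 to 1.02]), and in KO1 it was above it (2.54 [1.91 to 3.53]).

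The close relatives of Pax2 were rare transcripts. Pax5, which follows Pax2 at the border and later directs B lymphocyte commitment, had 0 reads at E7.5 and 12 at E8.5 in wild type, and 0 (KO1) and 1 (KO2) without Ddx6. It was at least 2.73-fold lower in KO1 than in E8.5 WT. In KO2, with 1 read, the log2 ratio was -3.57 [-8.99 to -0.82], which leaves its size open over a wide range. The fitted mean log2 difference was -2.42 ± 0.39 (SD, n = 2) and depends on the prior count. Pax8, which marks the border briefly and also the kidney and thyroid lineages, had 2 reads at E7.5 and 21 at E8.5 in wild type, and 0 (KO1) and 8 (KO2) without Ddx6. It was at least 4.78-fold lower in KO1 and 2.60-fold lower in KO2 (log2 difference -1.18 [-2.76 to -0.15]). Its fitted mean was -2.29 ± 1.57 (SD, n = 2), which depends on the prior count in the same way. With the prior count of 2, Pax8 was the only member above 1 on the log2 scale in KO2 relative to KO1 (2.22). This rests on 8 against 0 reads, and its bound is at least 1.84-fold higher. En2 was just under the threshold (0.97, 2.17-fold higher in KO2). Of all genes kept, 5.99% were higher in KO2 than in KO1 by this measure.

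Gbx2, which sets the posterior side of the border and represses Otx2, separated the KO libraries. It had 230 reads at E7.5 and 515 at E8.5 in wild type, and 273 (KO1) and 47 (KO2) without Ddx6, or 19.3, 41.9, 32.5 and 3.86 CPM. In KO1 it was 1.29-fold lower than in E8.5 WT (log2 difference -0.36 [-0.58 to -0.15]), and in KO2 10.9-fold lower (-3.38 [-3.90 to -3.01]). The mean of -1.87 ± 2.13 (SD, n = 2) has a spread larger than itself. KO2 was also 5.01-fold below E7.5 WT (-2.27 [-2.81 to -1.87]), whereas KO1 was above that stage (0.74 [0.49 to 1.01]). Between the KO libraries, Gbx2 was 8.43-fold lower in KO2 (-3.02 [-3.55 to -2.62]) and Pax2 6.57-fold lower (-2.57 [-3.57 to -1.95]). These 2 of the 7 genes were past -1 in this comparison, against 4.89% of all genes.

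Egr2, which specifies alternate hindbrain segments and activates Hox and Eph genes there, had 7 reads at E7.5 and 35 at E8.5 in wild type, and 5 (KO1) and 4 (KO2) without Ddx6. It was 4.78-fold lower in KO1 (log2 difference -1.97 [-3.97 to -0.90]) and 8.68-fold lower in KO2 (-2.58 [-5.07 to -1.63]), with a mean of -2.27 ± 0.43 (SD, n = 2). Both KO libraries were near the count of E7.5 WT, with log2 differences of 0.01 and -0.60 from it.

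**Figure D2:**
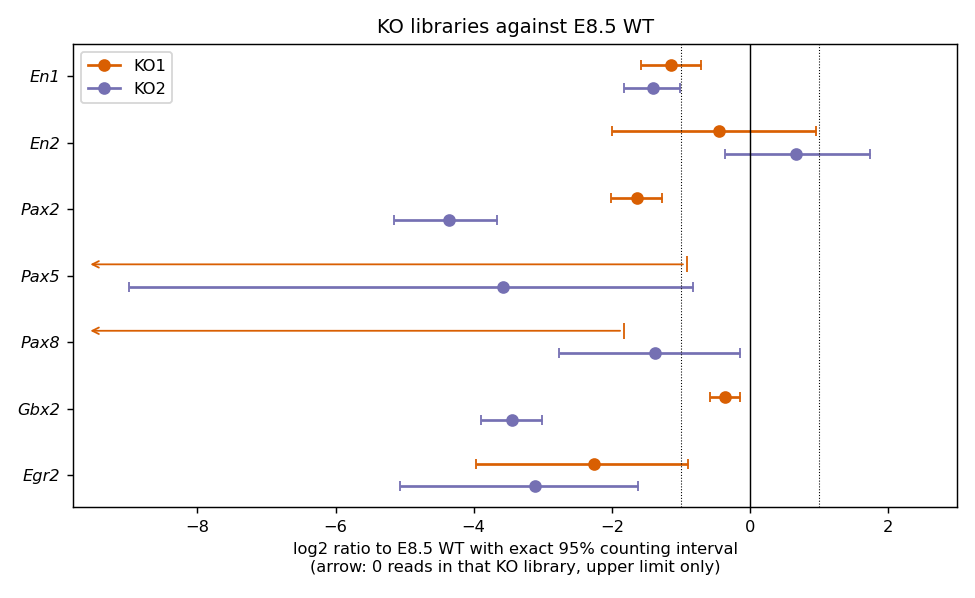
Log2 ratio of each KO library to E8.5 WT (x axis) for each gene (y axis), with exact 95% counting intervals as bars and arrows where the KO library had 0 reads and only an upper limit exists. En1 and Egr2 had overlapping intervals in KO1 and KO2, those of Pax2 and Gbx2 did not overlap, and the intervals of En2 covered 0.

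The edgeR quasi-likelihood F-test, fitted on all genes with all 4 libraries in 3 groups, estimates its spread from the KO pair alone. Against E8.5 WT it called 0% of all genes at an adjusted p under 0.05 (Benjamini-Hochberg), and 0 of the 7. The adjusted p was 0.666 for En1, Pax2, Pax5 and Egr2, 0.684 for Pax8, 0.761 for Gbx2 and 0.937 for En2. At an unadjusted p under 0.05, En1, Pax5 and Egr2 (3 of 7) were found, against 7.31% of all genes. Pax5 and Egr2 were kept through E8.5 WT alone, so this count is no test of the group. DESeq2 called 31 genes at an adjusted p under 0.05 in the same comparison, 0 of them among the 7. An exact permutation test of 2 libraries against 1 cannot go below p = 0.333.

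Against E7.5 WT, the comparison asked whether the KO embryos of E8.5 carried these genes at the level of the younger stage. En1 alone (1 of 7) was higher in both KO libraries, against 6.91% of all genes, and 0 of the 7 were lower in both, against 2.7%. The log2 difference of En1 was 1.66 [1.04 to 2.48] in KO1 and 1.40 [0.80 to 2.19] in KO2. En1 and Pax2 (2 of 7) were higher in KO1 taken alone, against 13.2% of all genes. In the edgeR test 0% of all genes and 0 of the 7 passed an adjusted p of 0.05, and the adjusted p of En1 was 0.151. At an unadjusted p under 0.05, En1 (1 of 7) was found, against 24.4% of all genes. DESeq2 called 728 genes here, with an adjusted p of 0.376 for En1, 0.393 for Pax2 and 0.992 for Gbx2, and left the other 4 members without an adjusted p. The comparisons share the KO libraries, and those with E8.5 WT share that library too, so the values stand side by side and are not independent.

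The genes that act with these factors were taken from lists compiled with earlier results of these data known. The list of isthmic signals and of the response to fibroblast growth factor (FGF) had 17 genes, of which 16 were kept. Against E8.5 WT, 0 were higher and 2 lower in both KO libraries, with list medians of -0.66 in KO1 and -0.54 in KO2. The 2 lower genes were Fgf17 and Fgf18, FGF ligands of the same family as Fgf8. Fgf17 had 11 reads at E7.5 and 61 at E8.5 in wild type, and 13 (KO1) and 28 (KO2) without Ddx6, with log2 differences from E8.5 WT of -1.57 and -1.05. Fgf18 had 6, 24, 3 and 5 reads in the same order, with -1.99 and -1.86. Fgf8, the main organizer signal, had 138, 217, 65 and 226 reads. It was 2.28-fold lower than E8.5 WT in KO1 (-1.17 [-1.61 to -0.78]) but not in KO2 (0.07 [-0.20 to 0.35]), whereas Gbx2 was past the threshold in KO2 only. In whole embryos Fgf8 is also made by the primitive streak and tail bud. Wnt1, the organizer signal of the midbrain side, had 0 reads at E7.5 and 71 at E8.5 in wild type, and 35 (KO1) and 0 (KO2) without Ddx6. It was 1.39-fold lower in KO1 (-0.45 [-1.10 to 0.13]) and at least 23.5-fold lower in KO2. Lmx1b, which maintains Wnt1, had 26, 84, 52 and 24 reads, with -0.14 in KO1 and -1.71 in KO2. The FGF feedback gene Spry1 (246, 402, 136 and 212 reads) lay near the threshold at -1.01 and -0.90, and Dusp6 (657, 889, 264 and 587 reads) at -1.20 and -0.58. Other FGF response genes of the list differed less. Spry2 was at -0.57 and -0.10, Spry4 at -0.53 and -0.05, and Il17rd at -0.78 and -0.30. Etv5 was at 0.04 and 0.11 and Flrt3 at 0.50 and -0.50, so the response genes did not move together. Etv4, an FGF-induced ETS factor, had 664, 562, 229 and 306 reads and was the gene of this list past -1 against E7.5 WT in both KO libraries (-1.03 and -1.15).

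On the midbrain side, 1 of 6 regulators was lower and 0 higher in both KO libraries relative to E8.5 WT, with list medians of -0.53 and -1.45. The lower gene was Pax7, a paired box gene of the dorsal neural tube and neural crest, with 6, 90, 16 and 18 reads in the order given above (log2 differences -1.85 and -2.18). Dmbx1, a midbrain homeobox gene, had 17, 143, 88 and 66 reads (-0.15 and -1.08), and both KO libraries were above E7.5 WT by 2.73 and 1.80 on the log2 scale. Otx2 had 828 reads at E7.5 and 703 at E8.5 in wild type, and 510 (KO1) and 2059 (KO2) without Ddx6. It was level with E8.5 WT in KO1 (0.09 [-0.08 to 0.25]) and 2.95-fold higher in KO2 (1.56 [1.44 to 1.69]). Otx2 is also expressed throughout the epiblast before it becomes anterior. The sum of the epiblast markers given above was highest in KO2, and most of it was Dnmt3b (2334 CPM). Utf1 was higher in E7.5 WT (149.5 CPM) than in KO2 (111.7). The part of the epiblast in the Otx2 level was not tested.

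The balance of Otx2 and Gbx2, the pair that meets at the border, was set out as a ratio of reads within each library, which needs no scaling between libraries. This ratio and the next were chosen after the values were seen. In wild type there were 3.60 Otx2 reads per Gbx2 read at E7.5 (exact 95% interval 3.11 to 4.19) and 1.37 at E8.5 (1.22 to 1.53). KO1 had 1.87 (1.61 to 2.17) and KO2 43.8 (32.8 to 59.8). KO1 lay between the wild-type stages and KO2 outside them. The ratio is of reads and not of molecules, since the genes differ in length.

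Members were also set against 8 neural plate markers (Sox1, Sox2, Sox3, Pax6, Nes, Zic1, Zic2 and Hes5), whose summed level in wild type was 265.6 CPM at E7.5 and 354.2 at E8.5, against 257.8 (KO1) and 407.7 (KO2). Per 1000 reads of these markers there were 43.7 En1 reads (37.6 to 50.5) for E8.5 WT, 27.3 (20.7 to 35.3) for KO1 and 14.3 (11.1 to 18.1) for KO2. Pax2 had 80.9 (72.3 to 90.2), 35.6 (28.0 to 44.7) and 3.42 (1.99 to 5.48) in the same order. Relative to the sum, the KO intervals of both genes were below that of E8.5 WT. Gbx2 had 118.3 (107.8 to 129.7) in E8.5 WT and 126.1 (110.8 to 143.1) in KO1, which overlapped, and 9.46 (6.94 to 12.6) in KO2. Egr2 had 8.04 (5.59 to 11.2), 2.31 (0.749 to 5.398) and 0.805 (0.219 to 2.06), and both KO intervals were below that of E8.5 WT for the sum. The markers did not move as a group, and the direction depended on the marker. In KO2 the sum came mostly from Zic2 (174.8 CPM), Nes (111.8) and Sox2 (96.34), against 63.3, 63.14 and 107.6 CPM in E8.5 WT. Ratios to the sum are therefore no measure of a level per neural plate cell. Sox1 had 13, 533, 178 and 42 reads and Pax6 10, 180, 31 and 14, both called lower in both KO libraries, while Zic2 had 1338, 778, 460 and 2130 and Nes 692, 776, 690 and 1363. Against each of the 7 kept markers alone, En1 was below E8.5 WT for 6 markers in KO1 but for 3 in KO2. Against Sox1 alone there were 0.357 En1 reads per marker read for E8.5 WT, 0.332 for KO1 and 1.69 for KO2, and against Pax6 alone 1.06, 1.903 and 5.07. Pax2 was below E8.5 WT for 6 of 7 markers in KO1 (Pax6 excepted) and 7 of 7 in KO2. Egr2 was below for 7 of 7 in KO1 and 5 of 7 in KO2, and Gbx2 for 2 of 7 in KO1 and 5 of 7 in KO2. These comparisons with single markers have no replicate check.

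**Figure D3:**
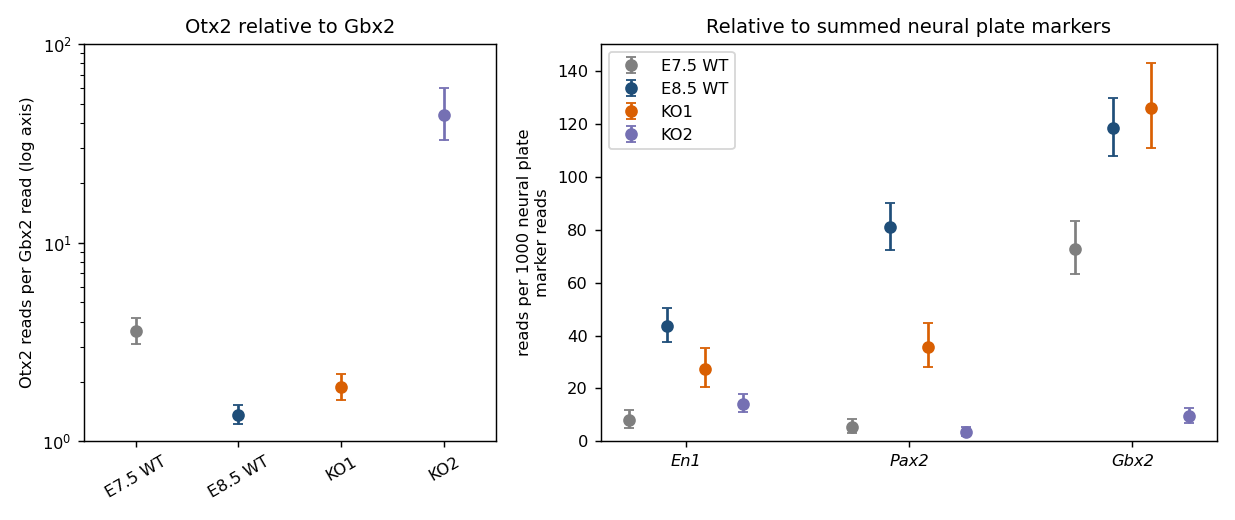
Left, Otx2 reads per Gbx2 read in each library on a log y axis. Right, reads of En1, Pax2 and Gbx2 per 1000 summed reads of 8 neural plate markers on a linear y axis, with exact 95% intervals as bars in both panels. The Otx2 to Gbx2 ratio was 43.8 in KO2 and between 1.37 and 3.60 elsewhere, and relative to the marker sum KO1 overlapped E8.5 WT for Gbx2 but not for En1 or Pax2. With single markers as denominator, the KO2 direction of En1 turned for 4 of 7 and that of Gbx2 for 2 of 7.

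Further back, 22 genes of hindbrain segmentation were kept, of which 3 were lower and 0 higher in both KO libraries relative to E8.5 WT. The list median was -0.15 in KO1 and -1.91 in KO2. The lower genes were Hoxd4 and the retinoic acid-degrading enzymes Cyp26b1 and Cyp26c1. Hoxd4 had 13 reads at E7.5 and 259 at E8.5 in wild type, and 42 (KO1) and 2 (KO2) without Ddx6, with log2 differences of -2.04 and -5.95 from E8.5 WT. Cyp26c1 had 4, 186, 16 and 2 reads (-2.88 and -5.48), and Cyp26b1 had 13, 20, 6 and 8 (-1.02 and -1.11, with counting intervals that reached 0.18 and -0.06). Like Gbx2, several anterior Hox genes were near or above their E8.5 WT level in KO1 and low in KO2. Hoxb1 had 493, 567, 552 and 60 reads (0.51 in KO1 and -3.18 in KO2), and the Egr2 targets Hoxb2 172, 425, 371 and 109 (0.35 and -1.93) and Hoxa2 9, 58, 34 and 7 (-0.21 and -2.70). Another target of Egr2, the Eph receptor gene Epha4, had 593, 1408, 857 and 716 reads (-0.17 and -0.96). In KO1, Hoxa2, Hoxb2 and Epha4 were within 1 of E8.5 WT on the log2 scale. Egr2, with 5 reads in KO1, was 4.78-fold lower, with an interval of -3.97 to -0.90. A link between Egr2 and these genes was not tested.

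Cofactors and corepressors of these factors were expressed in every library. Of 10 genes, among them the Groucho-type corepressors Tle1 to Tle4 that engrailed and Pax proteins recruit, the Nab1 and Nab2 corepressors of Egr proteins, and Pbx2 and Pbx3, 0 were higher and 0 lower in both KO libraries, with medians of 0.12 and -0.03. Tle3 had the most reads of the Tle genes, with 3452, 3020, 2312 and 2904 (0.16 and -0.04). Nab1 had 116, 213, 138 and 281 (-0.08 and 0.41). Relative to E7.5 WT, Tle2 was higher in both KO libraries (33, 50, 51 and 71 reads, 1.08 and 1.02).

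Paralogs outside the set were mostly low. Of 10 genes, 6 were kept, and Pax6 and Pax7 (2 of 6) were lower in both KO libraries, with medians of -0.87 and -2.79. Pax6, a paired box gene of the forebrain, hindbrain and spinal cord, had log2 differences of -1.94 and -3.48. Pax3, which marks the dorsal neural tube and the somites, had 9, 159, 57 and 13 reads (-0.91 and -3.40). Gbx1 had 0, 12, 4 and 1 reads (-0.82 and -2.15) and was kept through E8.5 WT alone. Egr1, an immediate early gene, had 46, 22, 20 and 32 (0.38 and 0.51) and was not lower in either KO library, unlike Egr2. In the edgeR tests against either wild-type stage, 0 genes of any of these 5 lists passed an adjusted p of 0.05.

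**Figure D4:**
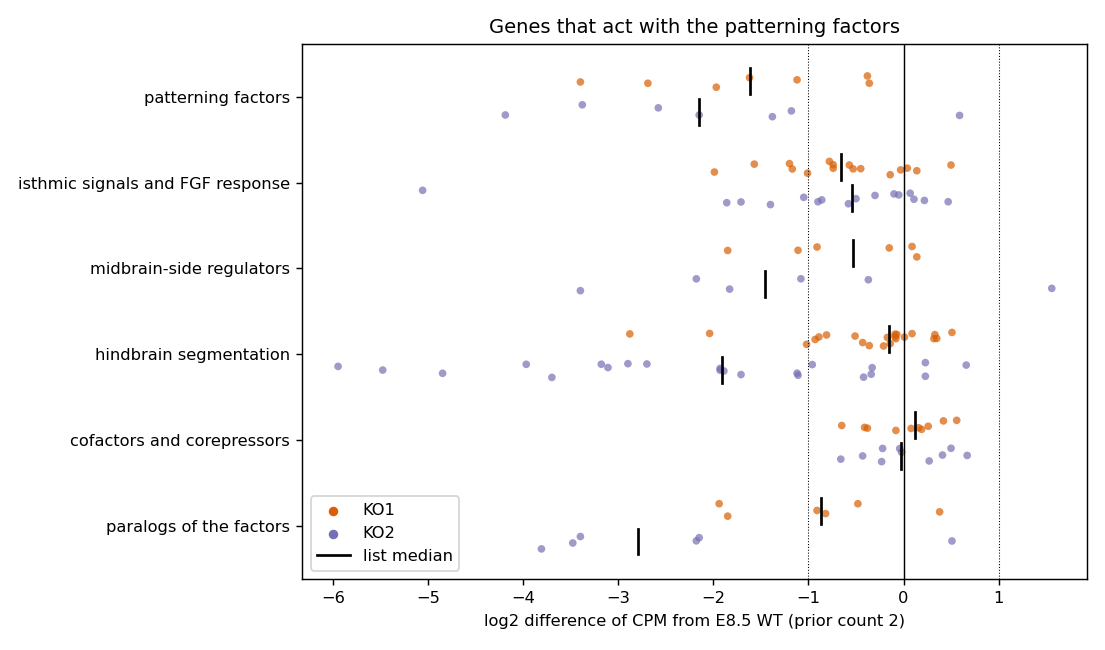
Log2 difference of each KO library from E8.5 WT (x axis, prior count of 2) for the 7 patterning factors and for each kept gene of the 5 lists (y axis), 1 point per gene, with black bars at list medians and dotted lines at 1 and -1. The medians of the cofactors are near 0 in both KO libraries, and the hindbrain list has a median of -0.15 in KO1 and -1.91 in KO2.

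Markers of other tissues that use the same factors moved with some results. The 6 intermediate mesoderm markers summed to 54.98 CPM at E7.5 and 55.17 at E8.5 in wild type, and to 49.66 (KO1) and 120.2 (KO2) without Ddx6. The high KO2 sum came from Lhx1 (296, 202, 150 and 1156 reads), whereas Osr1 (11, 132, 50 and 9) and Sim1 (1, 50, 11 and 0) were lower in KO2, as Pax2 was. The rest of the list did not share this fall, with log2 differences of KO2 from E8.5 WT of 0.77 for Wt1, -0.03 for Gata3 and -0.83 for Emx2. The 7 otic placode markers summed to 32.28, 102.5, 87.29 and 74.43 CPM, and Oc90 was at 0 in every library. The 3 pharyngeal and thyroid markers summed to 10.93, 15.7, 19.65 and 27.41 CPM, with Foxe1 at no more than 1 read. The 5 neural crest markers summed to 571, 1598, 1242 and 1246 reads, and their CPM ranged from 48.01 in E7.5 WT to 147.9 in KO1, with 102.2 in KO2. Among them Sox10, a defining marker of migrating crest, had 5, 14, 1 and 4 reads (-2.15 and -1.38 against E8.5 WT). It was called lower in both KO libraries but, like Egr2, reached 10 reads in E8.5 WT alone. The others were not called, with Tfap2a at 0.33 and 0.22, Foxd3 at -0.31 and 0.45, Snai2 at 0.80 and -0.80, and Ets1 at -0.12 and -0.81. For Pax5, the B lymphocyte markers Cd79a, Igll1, Ms4a1 and Blk had at most 3 reads in every library, Vpreb1 had 6, 3, 0 and 3 and Cd79b 3, 4, 0 and 1, and the sum over the list of 3.70, 7.16, 3.57 and 2.22 CPM was mostly Ebf1, which is also expressed outside the B lineage. For Egr2, the 7 immediate early genes summed to 105.3, 97.23, 103.2 and 119.9 CPM, and the myeloid markers to 6.73, 2.93, 2.38 and 17.4 CPM. Trophoblast markers summed to 315.5, 182.5, 424.5 and 791.7 CPM and decidua markers to 174.2, 44.34, 79.55 and 265.5 CPM. The part of these tissues in the results was not tested.

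For each gene, the transcripts with the most similar profile were sought among 11942 genes with at least 50 reads in at least 1 library, by the distance between centred log2 CPM profiles over the 4 libraries. Those nearest to En1 were Hesx1 (distance 0.17), a homeobox gene of the anterior neural plate, Lhx5 (0.29) and Tmem56 (0.34). Hesx1 had 26, 170, 57 and 73 reads, close to En1 in every library. Nearest to Gbx2 were Hoxd9 (0.29), Foxb1 (0.30) and Nkx1-2 (0.37), and nearest to Pax2 were Sim1 (0.42), Nkx2-5 (0.47) and Hoxd3 (0.59). Myom1 (0.50), Nepn (0.54) and Myo18b (0.58) were nearest to Pax5, Myh6 (0.55), Nepn (0.97) and C3 (1.07) to Pax8, and Foxl2 (0.48), Msrb3 (0.55) and Myom1 (0.55) to Egr2. En2 was nearest to Zfp946 (0.07), 1700010I14Rik (0.18) and A830080D01Rik (0.18). With 4 libraries, many genes share such a profile, and the distances are a description.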

How the data were processed

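Polyadenylated transcripts were sequenced in 4 libraries, grouped by their labels. The authors deposited raw counts per gene. Per the labels and methods, reads were trimmed (Cutadapt 2.8, quality checked with FastQC 0.11.7), aligned to mm10 (HISAT2 2.1.0, SAMtools 1.9) and counted over exons by strand (featureCounts 2.0.0).

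TMM factors from all genes (edgeR 4.0.16, R 4.3.3) were 0.983, 0.978, 1.024 and 1.015 for E7.5 WT, E8.5 WT, then KO1 and KO2. A gene was kept if any library gave it 10 counts or more (14393 genes). Log2 CPM used a prior count of 2. Folds against a library at 0 used a floor of 3 counts per library. The edgeR quasi-likelihood F-test was two-sided, with Benjamini-Hochberg adjustment over all genes kept, and took its spread, with 1 residual degree of freedom, from the KO libraries. Whether these were separate in more than their embryos is not stated, so p-values measure the spread between them. DESeq2 1.42.0 was an alternative. The pipeline was tested on simulated data. Intervals came from SciPy 1.17.1 and cover counting error only, since each rests on read counts of single libraries. The reads carried no molecular identifiers, so the intervals are of reads and not of molecules.

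The 7 genes, the lists and the tests were chosen with earlier results of these data known. Genes named are the 7, list genes called in both KO libraries, list genes known to act with the 7, and the 3 nearest profiles of each. Values of some single list genes are not reported here. Single marker genes and the FGF response genes Spry1, Spry2, Spry4, Dusp6, Il17rd, Etv5 and Flrt3 were named after their values were seen. Other settings were a threshold of 2, a prior count of 0.5, 50 counts as minimum or no filter, CPM without factors or with those of DESeq2, the omission of each KO library, and fits of only the libraries compared.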

Additional observations from a re-analysis of the deposited data

How the results depend on the processing

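Leaving out a KO library leaves the value of the other. The mean log2 difference from E8.5 WT of Gbx2 (-1.87) was then -3.38 or -0.36, that of Pax2 (-2.91) -4.19 or -1.62, that of Pax8 (-2.29) -1.18 or -3.40, and that of En2 (0.10) 0.59 or -0.38, on opposite sides of 0. The mean of Pax5 was -3.76 with a prior count of 0.5 and -2.42 with 2. With a minimum of 50 counts, Pax5, Pax8, Egr2 and En2 were not kept, and the genes of the set lower in both KO libraries than E8.5 WT numbered 2, and those higher in E8.5 WT than E7.5 WT 3. With a threshold of 2, they numbered 1 lower in both KO libraries than E8.5 WT (Pax5) and 0 higher in both than E7.5 WT. Leaving out a KO library left 5 to 6 lower than E8.5 WT. Against E7.5 WT, leaving out KO2 gave 2 higher (En1 at 1.66 and Pax2 at 2.54), against 13.2% of all genes, and 0 lower. Leaving out KO1 gave 2 higher (En1 at 1.40 and Pax8 at 1.27) and 1 lower (Gbx2 at -2.27). Apart from the 13.2%, shares of all genes were not taken for comparisons with E7.5 WT under these settings. Those counts of the 7 therefore cannot be judged against all genes. Size factors of DESeq2 and plain CPM moved none of the counts of the 7. Set against the summed neural plate markers, the log2 ratio of En1 to E8.5 WT was -0.68 (KO1) and -1.61 (KO2), and single markers, tried after the data were seen, turned it to 0.85 in KO1 with Pax6, and in KO2 to 2.25 with Sox1, 0.22 with Sox3, 2.26 with Pax6 and 1.01 with Hes5. That of Pax2 turned in KO1 to 0.35 with Pax6. In KO2, that of Gbx2 turned to 0.21 with Sox1 and 0.23 with Pax6, and that of Egr2 to 0.54 and 0.56. The cause was not tested.

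Over all genes, those lower and higher in both KO libraries than E8.5 WT were 257 and 495. They were 130 and 259 with a minimum of 50 counts, and 51 and 54 with a threshold of 2. Without KO1 they were 850 and 1354, and without KO2 476 were lower. At an edgeR adjusted p under 0.05, 0 genes were called against either stage. Against E8.5 WT, 8 were called with no filter, 1 with only the libraries compared, and 31 by DESeq2. Against E7.5 WT, 728 were called with no filter and 728 by DESeq2, and none of the 7 was called in any of these fits. No paired analysis was possible because only the KO group has more than 1 library. Low counts limit what can be said of En2, Pax5, Pax8 and Egr2, and the difference of pool stage between KO1 and KO2 cannot be told apart from other differences between them.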
